A study of Mus musculus with 12 samples.

Results

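The transcripts described are those of 10 olfactory sensory neuron transduction genes, measured in the olfactory bulb (OB), where the axons of these neurons end. They are Omp, Gnal, Adcy3, Cnga2, Cnga4, Gng13, Rtp1, Rtp2, Ano2 and Stoml3, taken by name from 19505 gene symbols on the array. Each symbol had 1 probeset here, so that no choice between probesets was needed. OBs of 12 female mice were profiled, 3 in each of 4 groups: Tg2576 and wild-type (WT) mice at 2 months and at 6 months. Tg2576 mice carry human amyloid precursor protein with the Swedish mutation of familial Alzheimer's disease, driven by the prion promoter, on a C57BL/6/SJL background, and the WT mice were their littermates without the transgene. No treatment was given. The replicate numbers in the labels name separate OB samples, and the p-values measure the spread between these samples.

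Olfactory sensory neurons lie in the nasal epithelium and send their axons into the glomeruli of the OB. An odorant bound to its receptor activates the olfactory G protein, adenylyl cyclase makes cyclic AMP, and cyclic nucleotide-gated channels let in calcium, which opens a chloride channel that enlarges the current. The cell bodies are outside the bulb, and mRNAs of mature sensory neurons are known to travel into their axons, so OB RNA can hold these transcripts. In bulk RNA, fewer axons or cells and less RNA in each of them cannot be told apart.

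By role, Gnal encodes the alpha subunit of the olfactory G protein and Gng13 a gamma subunit. Adcy3 encodes the adenylyl cyclase of the cilia. Cnga2 and Cnga4 encode subunits of the cyclic nucleotide-gated channel, and Ano2 encodes the calcium-activated chloride channel. Rtp1 and Rtp2 encode proteins that carry odorant receptors to the cell surface. Stoml3 encodes a stomatin-like membrane protein of the cilia, and Omp encodes olfactory marker protein, the classical marker of mature sensory neurons. Gnal and Adcy3 are also used by other brain neurons.

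Promoter sequences of the transduction genes are shown as background. Whether they have a part in the shared deviations of the transcripts between mice was not tested. RefSeq windows (GRCm38.p6) of 250 bases before to 50 after a transcript start were at hand for 7 of the 10 genes, in 11 windows, and Omp, Gnal and Rtp1 had none. The core CCCNNGGG, which resembles the middle of the sites known for early B cell factors of sensory neurons, lay in windows of 5 of the 7 genes (Ano2, Cnga2, Cnga4, Gng13 and Rtp2), or 5 of 11 windows. Of 32851 windows of all genes, 13.7% held it. It reads the same on both strands. Of 2 spellings of 10 bases related to CCCNNGGG, neither was in any of the 11 windows, against 0.904% and 2.05% of all windows. The homeodomain core TAATTA, searched on both strands, was in none of the 11 windows, against 5.29% of all windows. The shorter core CCCNNGGG was kept after matches to several spellings had been seen, and a match is a description of letters, not a site. Shown are 100 bases around the match in 4 of the genes, 5′ to 3′ on the strand of the gene, with the matching bases in capitals, which in Gng13 are 2 overlapping matches. They come from chr6:125711088-125711187 (plus strand) for Ano2, chrX:71991749-71991848 (plus strand) for Cnga2, chr17:25717072-25717171 (plus strand) for Gng13 and chr16:23930943-23931042 (minus strand) for Rtp2.
Ano2: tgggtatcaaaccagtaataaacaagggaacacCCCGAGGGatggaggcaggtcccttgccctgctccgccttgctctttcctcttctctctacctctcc
Cnga2: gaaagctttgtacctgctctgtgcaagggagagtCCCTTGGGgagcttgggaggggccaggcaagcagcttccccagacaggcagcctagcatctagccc
Gng13: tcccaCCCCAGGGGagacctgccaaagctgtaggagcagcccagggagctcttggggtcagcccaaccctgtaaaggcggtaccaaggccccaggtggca
Rtp2: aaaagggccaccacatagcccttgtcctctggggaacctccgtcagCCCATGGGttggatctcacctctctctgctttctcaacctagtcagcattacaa
Counted from the transcript start of the window, the match began at base -67 in Ano2, -66 in Cnga2, -95 (the first match) in Gng13 and -202 in Rtp2. In Cnga4 it began at base 25 after the start. The starts used for Ano2 (chr6:125711188) and Cnga4 (chr7:105404568) lie inside these genes, which begin at bases 125690419 and 105400024.

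Values are log2 intensities after robust multi-array average (RMA) normalization, and a difference of 1 is a doubling. The 12 arrays had medians of 8.24 to 8.27 over 22206 gene probesets, and correlated with each other at 0.978 to 0.995. A list of 11 measured OB neuron markers had summed levels of 14.88 to 15.07 on the 12 arrays. Hybridization controls were higher on WT 6 months replicates 2 and 3 (12.43 and 11.92) than on the other 10 arrays. Detection differed between the transduction genes. Omp, Gnal, Adcy3, Gng13 and Stoml3 lay above the brightest of 23 antigenomic background probesets on all 12 arrays, Ano2 did so on 1 array, and Cnga2, Cnga4, Rtp1 and Rtp2 on none. Against the median of 5222 negative control probesets, Cnga2 and Rtp1 were higher on 1 array, Rtp2 on 2 and Cnga4 on 10. Values of these 4 genes were thus close to the background of the arrays.

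None of the 10 transcripts passed the test in any of the 5 comparisons, although their differences pointed the same way within most of them. A call required an unadjusted limma p under 0.01 together with a fold above 1.3 or below 0.7. In Tg2576 against WT mice, 0 of 10 were called at 2 months (0.572% of all probesets were) and 0 of 10 at 6 months (1.04%). For the genotype difference at 6 months minus that at 2 months 0 of 10 were called (0.779%), and likewise for 6 against 2 months in WT mice (1.74%) and in Tg2576 mice (0.527%). Even at an unadjusted p under 0.05, limma called 0 of 10 at 2 months (6.32% of all), 0 at 6 months (8.61%), 0 for the difference between ages (5.71%), 1 for aging in WT mice (12%) and 0 for aging in Tg2576 mice (5.62%). The smallest adjusted p among the 10 was 0.407, for Rtp1 in WT mice.

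One array was the highest of all 12 for each of the 10 transcripts, Tg2576 2 months replicate 3. It was the highest array for 12.2% of all gene probesets. Its distance to the next array ran from 0.14 for Adcy3 to 0.83 for Stoml3, and was 0.61 for Omp, 0.81 for Gng13 and 0.55 for Ano2. The mean of the 10 transcripts, each taken as its deviation from its own 12-array mean, was 0.82 on this array and between -0.37 and 0.17 on the other 11. The other Tg2576 mice of that age were at -0.21 and -0.07, and the WT mice of that age at -0.12, 0.13 and 0.05. Results that involve the 2-month Tg2576 group are therefore given with and without this array.

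**Figure D1:**
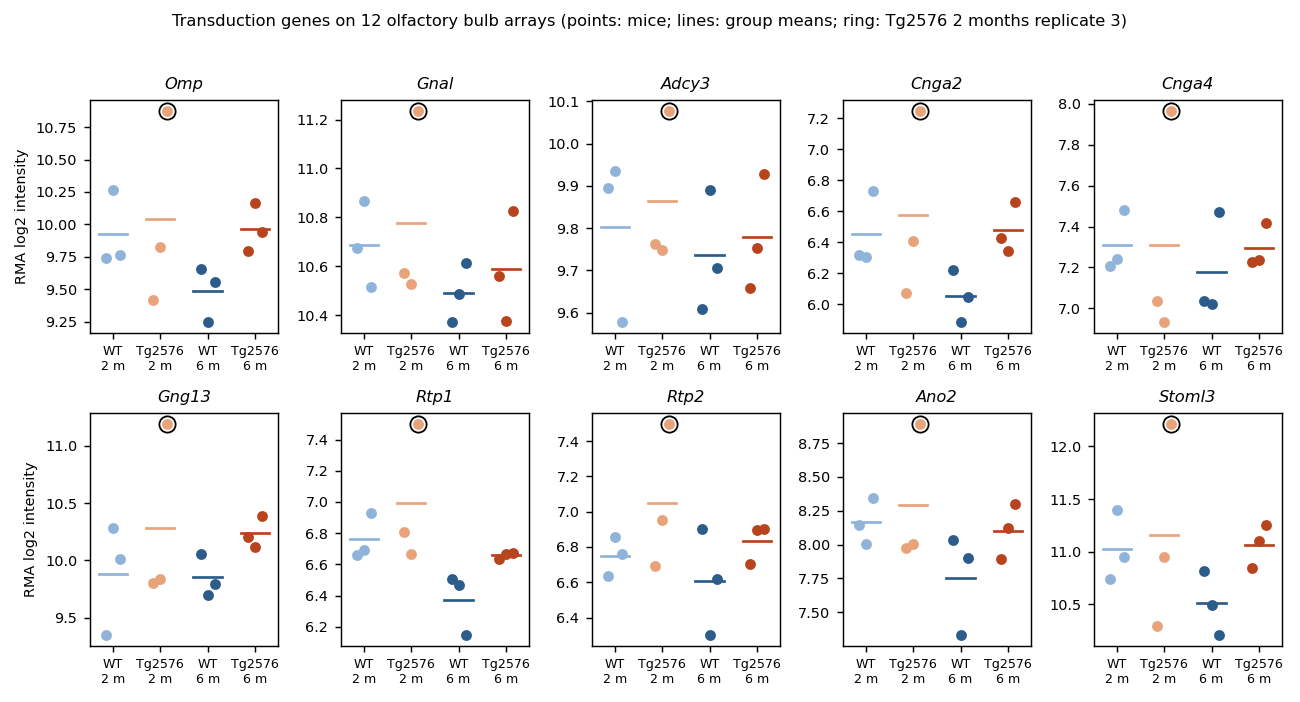
RMA log2 intensity (y axis) of each transduction gene on the 12 arrays, by group (x axis; WT and Tg2576, 2 m and 6 m for 2 and 6 months); points are mice in the order of replicates 1 to 3, and lines are group means. The ringed point, Tg2576 2 months replicate 3, is the highest of 12 in all 10 panels, and each panel has its own scale that does not start at 0.

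At 2 months the difference between genotypes rested on that mouse. Olfactory marker protein transcript, Omp, was at 9.74, 10.26 and 9.77 in the WT mice and at 9.42, 9.83 and 10.88 in the Tg2576 mice. The third Tg2576 mouse lay above every WT mouse and the first below every WT mouse, so the groups overlapped. The difference was 0.12 (95% CI -0.47 to 0.70, adjusted p = 0.987).

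Stoml3 behaved alike. It was at 10.74, 11.39 and 10.95 in WT mice and at 10.29, 10.95 and 12.22 in Tg2576 mice. The difference was 0.13 (CI -0.61 to 0.87), with the lowest and the highest of the 6 values both in Tg2576 mice.

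Gng13, the G protein gamma subunit, had the largest difference of the 10 at this age. It was at 9.35, 10.28 and 10.01 in WT mice and at 9.81, 9.84 and 11.19 in Tg2576 mice. This gave 0.40 (CI -0.25 to 1.05, adjusted p = 0.892), with 2 of the 3 Tg2576 values inside the WT range.

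For the channel genes the differences were small: 0.12 for Cnga2 (CI -0.36 to 0.61), 0.00 for Cnga4 (CI -0.46 to 0.46) and 0.13 for Ano2 (CI -0.36 to 0.61). The chaperones of odorant receptors had 0.23 for Rtp1 (CI -0.15 to 0.61) and 0.30 for Rtp2 (CI -0.09 to 0.69), the latter with the smallest adjusted p of the 10 (0.852). The G protein alpha subunit Gnal had 0.09 (CI -0.28 to 0.47) and the cyclase Adcy3 0.06 (CI -0.22 to 0.34). All 10 differences were above 0, against 51.8% of all probesets, with a median of 0.13 against 0.01 over all probesets. In 0 of 10 were all Tg2576 values above all WT values (5.23% of all probesets).

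Without Tg2576 2 months replicate 3 the direction turned for 9 of the 10. The median became -0.16, and only Rtp2 stayed above 0 (0.07). Omp was then at -0.30 (CI -0.70 to 0.10), Stoml3 at -0.41 (CI -0.91 to 0.09) and Cnga4 at -0.33 (CI -0.65 to -0.01, adjusted p = 0.984). None was called (0.405% of all probesets were).

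At 6 months the 10 transcripts were again all higher in Tg2576 than in WT mice by their means, and here 5 of them had groups that did not overlap. Omp was at 9.65, 9.25 and 9.55 in the WT mice and at 9.80, 10.16 and 9.94 in the Tg2576 mice. Every Tg2576 value was above every WT value. The difference of 0.48 (SE 0.27, CI -0.10 to 1.07) did not pass the test (adjusted p = 0.647).

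Stoml3 had the largest difference. It was at 10.82, 10.50 and 10.20 in WT mice and at 10.85, 11.10 and 11.25 in Tg2576 mice, so that the closest values of the groups nearly met. The difference was 0.56 (SE 0.35, CI -0.18 to 1.2975, adjusted p = 0.685).

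Cnga2, the principal subunit of the channel, was at 6.22, 5.89 and 6.05 in WT mice and at 6.43, 6.34 and 6.66 in Tg2576 mice, on values near background. The groups did not overlap, and the difference was 0.43 (SE 0.23, CI -0.06 to 0.91, adjusted p = 0.627, the smallest of the 10 in this comparison).

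Gng13 was at 10.06, 9.70 and 9.80 in WT mice and at 10.20, 10.12 and 10.38 in Tg2576 mice, a difference of 0.38 (CI -0.27 to 1.03). Rtp1, on values near background, was at 6.50, 6.47 and 6.15 in WT mice and at 6.64, 6.67 and 6.67 in Tg2576 mice, a difference of 0.29 (CI -0.09 to 0.66). Neither overlapped between the genotypes, and neither passed the test. The other 5 overlapped: Ano2 at 0.35 (CI -0.14 to 0.84), Rtp2 at 0.23 (CI -0.17 to 0.62), Cnga4 at 0.12 (CI -0.34 to 0.58), Gnal at 0.10 (CI -0.28 to 0.47) and Adcy3 at 0.04 (CI -0.24 to 0.33).

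Non-overlap in this direction was seen in 5 of 10 transduction genes and in 7.56% of all probesets. All 10 differences were above 0, against 51.8% of all, and their median was 0.32 against 0.01. The array that stands apart is not in this comparison, but the fit shares 1 variance per probeset over the 4 groups, and that array widened it: the SE of Omp was 0.27 with it and 0.17 without it. Leaving it out, Omp (CI 0.12 to 0.84, adjusted p = 0.477), Cnga2 (CI 0.11 to 0.74, adjusted p = 0.477), Stoml3 (CI 0.11 to 1.00, adjusted p = 0.492) and Rtp1 (CI 0.03 to 0.54, adjusted p = 0.511) were under 0.05 before adjustment, 4 of 10 against 8.92% of all probesets, and none was called. In a fit to the 6 arrays of this age alone Omp, Cnga2 and Stoml3 were called, 3 of 10 against 1.04% of all. Without both WT 6 months arrays with high hybridization controls, which left 1 WT mouse assumed to vary like the other groups, the median was 0.20 and 9 of 10 were above 0.

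**Figure D2:**
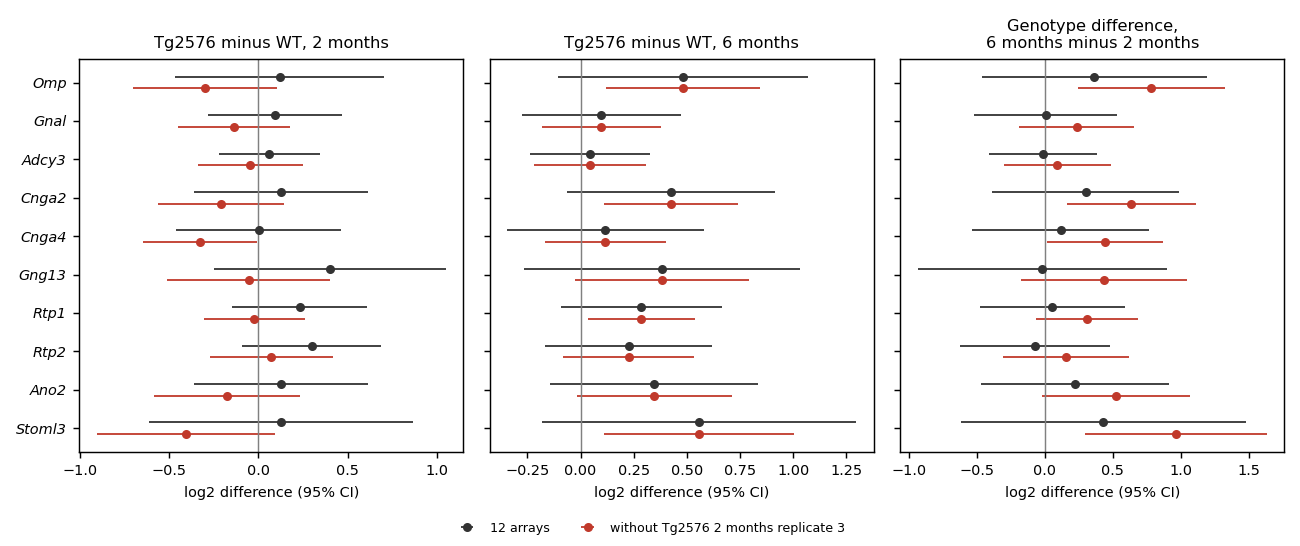
Log2 differences (x axis) of the 10 transduction genes (y axis) between Tg2576 and WT mice at 2 months, at 6 months, and the second minus the first; points are limma estimates and bars 95% confidence intervals, from 12 arrays (black) and without Tg2576 2 months replicate 3 (red). Every black interval spans 0, and the red points lie left of the black ones at 2 months and right of them in the panel of the difference between ages.

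The test of whether the genotype difference changed with age gave no call over 12 arrays. The median of the 10 was 0.09 against 0.00 over all probesets, and 7 of 10 were above 0 (50.5% of all were). Omp differed by 0.36 (SE 0.39, CI -0.47 to 1.19, adjusted p = 0.909) and Stoml3 by 0.43 (SE 0.49, CI -0.62 to 1.48). Without Tg2576 2 months replicate 3 all 10 were above 0 and the median was 0.44. Omp (0.78, CI 0.24 to 1.32) and Stoml3 (0.96, CI 0.29 to 1.63) were then called, 2 of 10 against 1.26% of all probesets, each with an adjusted p of 0.782. The 2-month Tg2576 group holds 2 mice in that fit.

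With age, the 10 transcripts had lower means in WT mice. All 10 differences of 6 minus 2 months were below 0, while 48.3% of all probesets were above 0, and their median was -0.29 against -0.01. Rtp1, one of the receptor chaperones, was at 6.66, 6.69 and 6.93 at 2 months against the 6.50, 6.47 and 6.15 given for 6 months, on values near background. These did not overlap, and the difference of -0.39 (SE 0.18, CI -0.77 to -0.01) was under 0.05 before adjustment, with an adjusted p of 0.407. Without Tg2576 2 months replicate 3 it was under 0.01 (adjusted p = 0.27), but its fold did not reach the limit for a call.

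Omp (-0.44, CI -1.02 to 0.15) and Cnga2 (-0.40, CI -0.89 to 0.09) also had every 6-month value below every 2-month value, Cnga2 on values near background. That makes 3 of 10, against 6.16% of all probesets. Stoml3 had -0.52 (CI -1.26 to 0.22), with the highest 6-month mouse (10.82) above the lowest 2-month mouse (10.74). WT 6 months replicate 2 was the lowest of the 12 arrays for 4 of the 10 transcripts and replicate 3 for 2 of them. The share of all probesets that were lowest on each is not given here. These arrays, with high hybridization controls, were the highest for 16.4% and 10.4% of all gene probesets. Without both arrays, the median was -0.22 and 2 of 10 were above 0.

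In Tg2576 mice all 10 differences of 6 minus 2 months were also below 0 (49% of all probesets were above 0), with a median of -0.10, and 0 of 10 were lower without overlap (6.96% of all). Omp differed by -0.07 (CI -0.66 to 0.51) and Stoml3 by -0.09 (CI -0.83 to 0.65). Without replicate 3 of the 2-month group the median was 0.17 and 9 of 10 were above 0, with Omp at 0.35 (CI -0.06 to 0.75) and Stoml3 at 0.44 (CI -0.06 to 0.94). The comparisons share groups: the 2-month Tg2576 mice enter 3 of the 5 comparisons, and the 6-month WT mice also 3, so their directions are not independent of each other. Within each comparison the 10 genes are not independent either, because their levels moved together between mice.

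Over the 4 groups, Omp had means of 9.48 ± 0.21 (SD, n = 3) in 6-month WT mice, 9.92 ± 0.29 in 2-month WT mice, 9.97 ± 0.18 in 6-month Tg2576 mice and 10.04 ± 0.75 in 2-month Tg2576 mice. The upper 3 means lay within 1 SD of each other. The 6-month WT group had the lowest mean of the 4 for 10 of 10 transcripts, and the 2-month Tg2576 group the highest for 10 of 10. Replicate 3 raised the means of the latter. The other 2 Tg2576 mice of 2 months averaged 9.62 for Omp and 10.62 for Stoml3, below the 2-month WT means of 9.92 and 11.03. Without replicate 3, 1 of 10 differences between genotypes at 2 months was above 0. The SD of the 2-month Tg2576 group reached 0.98 for Stoml3, while it was 0.19 for Adcy3. Adcy3 varied least of the 10, over 0.50 from the lowest to the highest array, and Stoml3 most, over 2.01.

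The transcripts also moved together from mouse to mouse. Over 12 arrays the 45 pairs of transduction genes had Pearson correlations of 0.30 to 0.94 with a median of 0.73, highest for Omp with Stoml3. Without Tg2576 2 months replicate 3 the median was 0.35 (-0.20 to 0.87), and Omp with Stoml3 still had 0.87. Omp, Stoml3 and Cnga2 followed the mean of the other 9 most closely on the remaining 11 arrays (0.83, 0.82 and 0.80). Adcy3 (0.04), Cnga4 (0.34) and Gnal (0.39) did so least. The 12 points share the tissue dissection and the normalization of each array, so no p is given. Because of these correlations, counts of transduction genes with a shared direction or without overlap hold fewer independent observations than genes.

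Of 19495 other symbols, the 8 whose levels were most like the mean of the 10 were Gfy, Vwa3a, Fbln7, Fetub, Olfr1370, Ces1d, Kirrel2 and Gabra6, at Pearson correlations of 0.96 to 0.93 over 12 arrays. Gfy encodes a protein of the Golgi in sensory neurons, Kirrel2 an adhesion protein of their axons, and Olfr1370 an odorant receptor. For Gfy the Spearman correlation was 0.84, and Pearson's was 0.77 without the 2 arrays farthest from the median, Tg2576 2 months replicate 3 and WT 6 months replicate 2. Without the former, Gfy ranked 12 and Ces1d 244 in likeness.

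Other parts of the same cascade were summarized as a list that mixes genes of sensory neurons with genes used throughout the brain. Of 22 listed partners 19 were measured, among them the third channel subunit Cngb1, the chaperone of the olfactory G protein Ric8b, phosphodiesterases, exchangers and calmodulins. Their mean deviation lay between -0.08 and 0.08 on every array and was 0.01 on Tg2576 2 months replicate 3. On that array 4 of the 19 had their highest level: Ric8b (11.22), Pde1c (9.88, an olfactory phosphodiesterase), Calm3 and Gucy2d. There 3 had their lowest: Pde4a (10.47), Pde2a (9.82) and Camk2a (12.78). Cngb1 was at 8.61 there and higher on WT 2 months replicate 3 (8.70). Whether this list differed from the 10 transduction genes was not tested. At 2 months 0 of 19 were called, with the lowest p for Slc12a2, a chloride importer of sensory neurons (-0.35, adjusted p = 0.762). At 6 months 1 of 19 was called higher in Tg2576 mice (0.644% of all probesets were called higher) and 0 lower.

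This was Slc24a4, the sodium, potassium and calcium exchanger that ends the odor response of sensory neurons. It was at 7.98, 7.51 and 8.01 in 6-month WT mice and at 8.70, 8.07 and 8.65 in Tg2576 mice of that age. The groups did not overlap, and the difference was 0.64 (SE 0.19, CI 0.24 to 1.04, adjusted p = 0.428). It lost the call when either Tg2576 6 months replicate 1 or 3 or WT 6 months replicate 2 was left out, with differences of 0.53, 0.55 and 0.48. Its genotype difference changed by 0.61 between the ages (adjusted p = 0.842), which is not a call.

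Among 19 measured other genes of sensory neurons, 17 had a difference above 0 at 2 months (median 0.16) and 14 at 6 months (median 0.19). At each age 51.8% of all probesets were above 0. On Tg2576 2 months replicate 3 the mean deviation of the 19 was 0.44 and the median 0.16, and 9 had their highest level there. Only Emx2, a transcription factor of sensory neurons, was called, higher in 6-month Tg2576 mice by 0.45 (adjusted p = 0.408). At that age 0.644% of all probesets were called higher. Of 9 genes of immature neurons, 1 was called higher at 2 months (0.401% of all probesets), Stmn2 at 0.38. Stmn4 was also higher at that age without overlap (0.37, adjusted p = 0.762), but its fold did not reach the limit for a call. At 6 months 3 were called higher (0.644% of all probesets): Gap43 (0.47), Stmn2 (0.42) and Stmn4 (0.39). These encode proteins of growing axons and microtubules, which other neurons of the bulb make as well. The mean deviation of this list was 0.12 on Tg2576 2 months replicate 3, against 0.17 on replicate 1 of that group. Of 11 OB neuron markers 2 were called higher at 6 months (0.644% of all probesets), Tbr1 (0.75), of mitral and tufted cells, and Slc17a6 (0.49). Slc17a6 had its highest level on Tg2576 2 months replicate 3 (8.27), and which cells its transcript came from was not tested. In the same list Tbx21 (0.45), Eomes (0.18), Reln (0.10) and Cdhr1 (-0.08) were not called. Of the 11 differences 7 were above 0 and 4 below, with a median of 0.10. None of the 7 calls at 6 months held without both WT 6 months arrays with high hybridization controls, when the WT group was a single mouse. The differences were then 0.75 for Tbr1, 0.49 for Slc24a4, 0.42 for Stmn4, 0.41 for Emx2, 0.40 for Stmn2, 0.37 for Gap43 and 0.28 for Slc17a6. With single arrays left out, Tbr1 held its call each time. Of the others, Emx2 and Gap43 lost it without Tg2576 6 months replicate 3, Gap43 and Stmn4 without replicate 1 of that group, and Stmn2 and Stmn4 without WT 6 months replicate 3. Stmn4 also lost it without WT 6 months replicate 1, and Slc17a6 without any of 6 arrays. At 2 months Stmn2 lost it without Tg2576 replicate 1 or 3 or WT replicate 1.

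**Figure D3:**
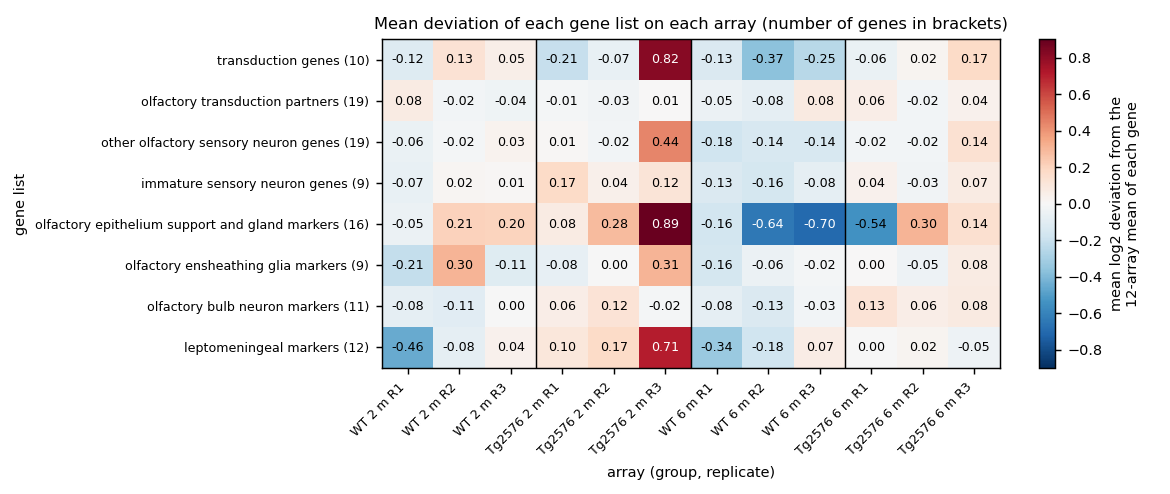
Mean log2 deviation (color and printed value) of each gene list (rows, with the number of measured genes) on each of the 12 arrays (columns, R1 to R3 for the replicates), where each gene is taken relative to its own 12-array mean. On Tg2576 2 months replicate 3 the transduction genes stand at 0.82, support and gland markers at 0.89, leptomeningeal markers at 0.71 and transduction partners at 0.01.

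Some markers of cells that surround sensory neurons in the nose were high on the array on which the transduction genes were highest. Of 20 listed markers of the olfactory epithelium, 16 were measured. The list is named for supporting cells and glands but also holds the basal cell markers Krt5, Krt14 and Trp63. The mean deviation of the 16 was 0.89 on Tg2576 2 months replicate 3, and -0.64 and -0.70 on WT 6 months replicates 2 and 3. It was -0.54 on Tg2576 6 months replicate 1, where the transduction genes were at -0.06. On Tg2576 2 months replicate 3 the median deviation of the 16 was 0.36, and 8 of the 16 had their highest level there, while Obp2a, an odorant-binding protein (5.51), and the lipocalin Lcn11 (6.25) were near the low end of their ranges (5.39 to 7.98 and 6.15 to 7.50). The log2 of their summed intensity ranged from 12.08 to 12.81 in 2-month WT mice, 12.44 to 14.15 in 2-month Tg2576 mice, 11.15 to 11.91 in 6-month WT mice and 11.31 to 12.68 in 6-month Tg2576 mice. At 2 and at 6 months 0 of 16 were called between genotypes, with median differences of 0.16 and 0.34.

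Cyp2g1, a cytochrome of the olfactory mucosa, and Cyp2a5 varied most of the 16 markers. Cyp2g1 was at 9.37, 10.14 and 10.48 in 2-month WT mice, at 9.79, 9.41 and 12.08 in 2-month Tg2576 mice, at 8.73, 6.25 and 6.00 in 6-month WT mice and at 6.43, 9.20 and 10.35 in 6-month Tg2576 mice. Its highest array is that on which the 10 transduction genes were highest. In WT mice it was called lower at 6 months (-3.0014, adjusted p = 0.264), as were Cyp2a5 (-2.76) and Cbr2 (-1.44), 3 of 16 against 0.293% of all probesets. None of the 3 calls held without WT 6 months replicate 2 (Cyp2g1 at -2.63), without WT 2 months replicate 3 (-2.76) or without both WT 6 months replicates 2 and 3 (-1.26). Cyp2g1 and Cyp2a5 also lost the call without WT 2 months replicate 2 or WT 6 months replicate 3, and Cyp2a5 without Tg2576 2 months replicate 1 and with the replicate block. None of the 3 calls held with the trended and robust prior.

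With the mean of these 16 markers as a covariate, an alternative added once the data had been seen, the median difference of the 10 transduction genes was -0.03 at 2 months (5 of 10 above 0), -0.02 at 6 months (4 of 10 above 0) and 0.09 for aging in WT mice (8 of 10 above 0). Without the covariate these were 0.13, 0.32 and -0.29. The marker mean itself differed between groups: 0.12 in 2-month WT, 0.42 in 2-month Tg2576, -0.50 in 6-month WT and -0.03 in 6-month Tg2576 mice. The covariate can thus take up part of a group difference, and this fit cannot tell these apart. How much nasal epithelium each dissected bulb carried was not measured.

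**Figure D4:**
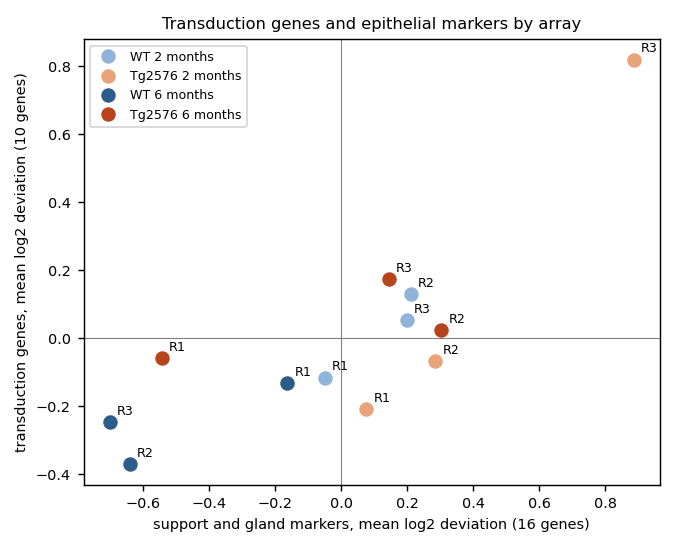
Mean log2 deviation of the 10 transduction genes (y axis) against that of 16 support and gland markers of the olfactory epithelium (x axis), 1 point per array, colored by group and marked R1 to R3 by replicate. Tg2576 2 months replicate 3 is at the upper right (0.89, 0.82), WT 6 months replicates 2 and 3 at the lower left, and Tg2576 6 months replicate 1 combines -0.54 on the x axis with -0.06 on the y axis.

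Markers of the coverings of the bulb were also high on that array, 11 of 12 with their highest level there. The 12 leptomeningeal markers had a mean deviation of 0.71 on Tg2576 2 months replicate 3, and their summed level ranged from 12.66 to 13.04 in 2-month WT mice, from 13.05 to 13.70 in 2-month Tg2576 mice, from 12.68 to 13.00 in 6-month WT mice and from 12.94 to 13.01 in 6-month Tg2576 mice. At 2 months 3 of 12 were called higher in Tg2576 mice, Omd (1.11), Ogn (1.06) and Igf2 (0.65), against 0.401% of all probesets. Omd and Ogn lost the call without that array or without WT 2 months replicate 1, and Ogn also without WT 2 months replicate 2. The 9 measured markers of olfactory ensheathing glia, which wrap the sensory axons, were at 0.31 on that array and at 0.30 on WT 2 months replicate 2, with summed levels of 14.24 to 14.76 in 2-month WT mice and 14.299 to 14.76 in 2-month Tg2576 mice. None of these 9 was called, the lowest p being that of S100b at 2 months (0.46, adjusted p = 0.762). With the mean of the leptomeningeal markers as a covariate, the median of the 10 transduction genes at 2 months was -0.32 with 0 of 10 above 0. Cnga4, on values near background, was called in this fit (-0.58), without adjustment. The share of all probesets called in this fit is not given, so the call cannot be set against it. At 6 months the median of the 10 with this covariate was 0.18 with 9 of 10 above 0. The leptomeningeal mean was 0.33 in 2-month Tg2576 and -0.17 in 2-month WT mice, so this covariate can take up part of that genotype difference. The part of ensheathing glia in the levels of the transduction genes was not tested.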

How the data were processed

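OB RNA of 12 mice was extracted with the Maxwell 16 simplyRNA kit and 1 ng of it labelled for Affymetrix Clariom S arrays. The authors deposited log2 values made by RMA, which corrects background, normalizes by quantiles and summarizes probes to probesets. The RMA version was not given in the sources used here. Depth does not apply to arrays, and 3 samples per group limit the precision: the median SE of a transduction gene's difference was 0.22.

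All 4 groups entered 1 linear model per probeset in limma 3.58.1 (R 4.3.3, statmod 1.5.0), over 22206 gene probesets with 6923 control probesets left out. Benjamini-Hochberg adjustment ran over all of them. The genotype difference between ages had no fold limit. Of all probesets 19572 had 1 symbol and 2634 none. Of 107 entries of the other lists 95 were measured. From these lists the genes named are those called, up to 4 a comparison, or the one with the lowest p.

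The members and lists were chosen with earlier results of these data known. Alternatives covered the samples in the fit, the variance prior, array weights, dim probesets, normalization, the replicate number as a block, each array left out, covariates and call limits. The fit was tested on simulated data. Same-numbered samples of the genotypes did not deviate together (correlations of -0.22 to 0.18), so no pairing was used.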

Additional observations from a re-analysis of the deposited data

How the results depend on the processing

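Each alternative was run for the counts of called transduction genes, their medians, and the single genes named. No transduction gene was called in any comparison over 12 arrays, and this changed in 4 settings: 3 were called at 6 months in the fit to its 6 arrays, 2 for the difference between ages without Tg2576 2 months replicate 3, 1 at 2 months with the leptomeningeal covariate, and 1 for aging in WT mice at an unadjusted p under 0.05 with no fold limit. With single arrays left out, the number called for the difference between ages ran from 0 to 2. The medians then ran from -0.16 to 0.35 at 2 months, from -0.074 to 0.44 for the difference between ages and from -0.35 to 0.17 for aging in Tg2576 mice. Both ends of these 3 ranges come from leaving out a Tg2576 mouse of 2 months. The replicate block left every median as it was (0.13 at 2 months, 0.32 at 6 months) and gave no call among the transduction genes.

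With the leptomeningeal covariate the medians were -0.32 at 2 months, 0.52 for the difference between ages and 0.16 for aging in Tg2576 mice. With the support and gland covariate, added after seeing the data, they were -0.0265 at 2 months, -0.024 at 6 months, 0.0897 for aging in WT mice and 0.16 for aging in Tg2576 mice. Without Tg2576 2 months replicate 3 and both WT 6 months arrays with high hybridization controls, also added later, they were -0.16 at 2 months and 0.17 for aging in Tg2576 mice. Both covariates differed in mean between groups, so they can take up part of a group difference.

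Single genes that were not called changed sign as follows. At 2 months array weights gave Omp -0.057, Gnal -0.026, Adcy3 -0.0249, Cnga4 -0.027 and Stoml3 -0.054, and Cnga4 was -0.0109 after median centring and -0.0141 after cyclic loess. The leptomeningeal covariate gave Omp -0.49, Gnal -0.22, Adcy3 -0.014, Cnga2 -0.37, Cnga4 -0.58, Gng13 -0.37, Rtp1 -0.069, Rtp2 -0.0015, Ano2 -0.28 and Stoml3 -0.55 at 2 months, Cnga4 -0.048 at 6 months, and Omp 0.34 and Stoml3 0.37 for aging in Tg2576 mice. The support and gland covariate gave Omp -0.16, Cnga2 -0.069, Cnga4 -0.13, Ano2 -0.089 and Stoml3 -0.24 at 2 months. At 6 months it gave Gnal -0.0203, Adcy3 -0.028, Cnga4 -0.0896, Gng13 -0.046, Rtp2 -0.0701 and Stoml3 -0.029. For aging it gave Omp 0.14, Cnga2 0.003 and Stoml3 0.25 in WT mice and Omp 0.34 and Stoml3 0.47 in Tg2576 mice. Without both WT 6 months arrays Rtp2 was -0.068 at 6 months.

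With single arrays left out, the differences at 2 months ranged from -0.30 to 0.43 for Omp, -0.14 to 0.22 for Gnal, -0.0515 to 0.13 for Adcy3, -0.21 to 0.38 for Cnga2, -0.33 to 0.19 for Cnga4, -0.055 to 0.64 for Gng13, -0.024 to 0.40 for Rtp1, -0.18 to 0.28 for Ano2 and -0.41 to 0.56 for Stoml3. At 6 months they ranged from -0.021 to 0.20 for Gnal and from -0.0299 to 0.12 for Adcy3. For aging in Tg2576 mice they ranged from -0.38 to 0.35 for Omp and from -0.52 to 0.44 for Stoml3. Of the calls among genes of the other lists (4 at 2 months, 7 at 6 months and 3 for aging in WT mice), none changed sign in these alternatives, while 3, 6 and 3 of them lost the call with at least 1 single array left out. Calls were also lost with the trended and robust prior (Ogn, Cyp2g1, Cyp2a5, Cbr2), array weights (Stmn2 at 2 months, Cyp2g1, Cyp2a5), median centring (Stmn2 at 2 months), cyclic loess (Slc17a6), the fit to the 6 arrays of one age (Slc24a4) and the replicate block (Cyp2a5). The leptomeningeal covariate took away those of Stmn2 at 2 months, Ogn (0.054), Omd, Igf2 and Slc17a6, and the support and gland covariate those of Stmn2 at 2 months, Ogn, Slc17a6, Cyp2g1, Cyp2a5 and Cbr2. Ogn, Omd and Igf2, and Cyp2g1, Cyp2a5 and Cbr2, are themselves in the means used as covariates. Signal over background limits the values of Cnga2, Cnga4, Rtp1, Rtp2 and Ano2.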
